A study of Mus musculus with 24 samples.

Results

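The comparison described here sets 4 libraries of primary astrocytes harvested 6 h after 0.1 Gy X-rays against 4 libraries of mock-irradiated cells (0 Gy) of the same time point. These are 8 of the 24 libraries of the series, and they were chosen by dose, time and replicate number in the sample labels. Astrocytes, the glial cells that feed and protect neurons, were isolated from the cortex of wild type C57BL/6J mouse embryos, and each preparation combined the cortical cells of a whole litter. The cultures were irradiated 3 days after seeding, and the mock-irradiated controls went through the procedure with no exposure. The polyadenylated mRNA was sequenced and counted per gene for all conditions, which also include 2 Gy at 6 h and the 3 doses at 24 h. The question of this comparison is what a low dose does early, and how large a change these libraries can exclude.

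Ionizing radiation breaks DNA, and the kinase ATM, activated by double strand breaks, stabilizes the transcription factor p53. In dividing cells p53 then raises *Cdkn1a*, whose product p21 stops the cell cycle, its own antagonist *Mdm2*, and genes of apoptosis and repair. A response to radiation 6 h after exposure is therefore usually read from these targets first, beside inflammatory and antioxidant genes.

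At 6 h after 0.1 Gy, 0 of 16020 tested genes differed from mock-irradiated cells at an adjusted p under 0.05 (0% of genes), and none was called at a log2 fold change of at least 1. Libraries with the same replicate number were treated as pairs, and genes were tested with edgeR's quasi-likelihood test with the replicate number as a block and Benjamini-Hochberg adjustment. The smallest adjusted p was 0.885. Taken at an unadjusted p under 0.05, 269 genes were higher after 0.1 Gy (1.68%) and 367 lower (2.29%). With the same block, limma (voom) and DESeq2 also placed 0 genes at an adjusted p under 0.05. At an unadjusted p under 0.05 voom had 665 of 16020 genes, 274 higher and 391 lower. DESeq2, run without a filter on low counts, had 338 of 30183 genes, 202 higher and 136 lower. With DESeq2 size factors in edgeR 344 were higher and 321 lower, so the larger direction depended on the setting. Without the block there were 24 genes at that unadjusted threshold and again 0 at an adjusted p under 0.05. Over all tested genes 1180 (7.37%) were higher after 0.1 Gy in all 4 pairs and 1095 (6.84%) lower in all 4, so a direction shared by the pairs was common. The fitted log2 fold changes were small, with a median of the absolute values of 0.08, a 90th percentile of 0.24 and a 99th percentile of 0.55 (log2).

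**Figure D1:**
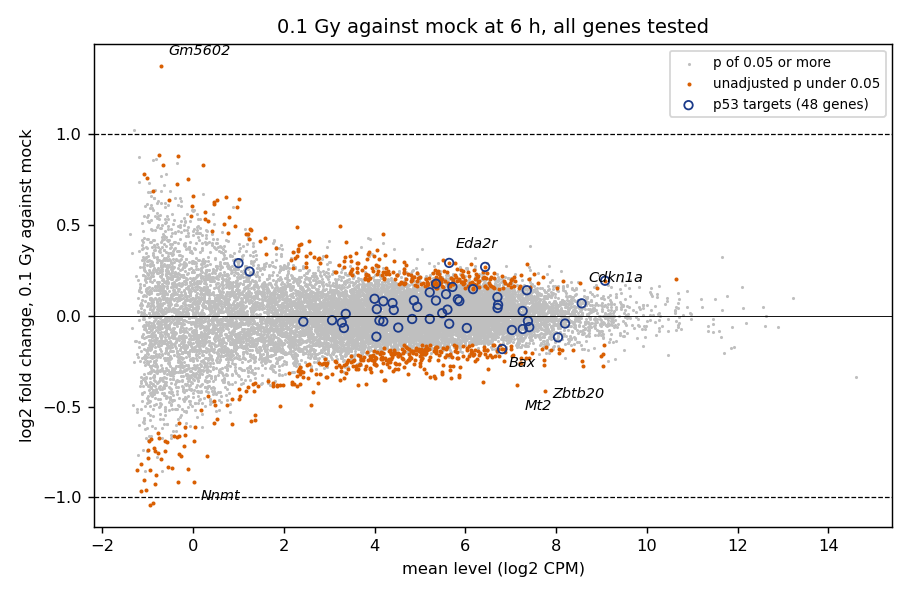
Each point is 1 of 16020 genes, with its mean level (log2 CPM, where CPM are counts scaled to a common library total) on the horizontal axis and its fitted log2 fold change of 0.1 Gy against mock at 6 h on the vertical axis; orange marks an unadjusted p under 0.05, blue rings mark the 48 p53 targets and dashed lines mark a 2-fold change. The cloud narrows with the level, the p53 targets lie between -0.18 and 0.29, and only 4 genes, all of low level, lie at a change of 2-fold or more.

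The size of change that these 8 libraries can exclude was read from the 95% interval of each gene's log2 fold change, taken from the same fit. The median half-width was 0.21 on the log2 scale, which is a 1.16-fold change. For 95.8% of the 16020 genes the interval lay inside a 2-fold change in either direction and for 81.7% inside 1.5-fold, so a larger change of each such gene taken singly lies outside its interval. The interval of 668 genes reached 2-fold or beyond, and 592 of these had a mean level under 1 CPM. The precision followed the level. The median half-width was 0.69 for the 1610 genes under 1 CPM, 0.44 for the 2450 genes from 1 to 4 CPM, 0.25 for the 3171 genes from 4 to 16 CPM, 0.18 for the 5145 genes from 16 to 64 CPM and 0.16 for the 3045 genes from 64 to 256 CPM. Above 256 CPM it was 0.17 (599 genes).

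For a statement about all 16020 genes at once the intervals are wider. With a Bonferroni adjustment the median half-width was 0.86 (1.81-fold), and 53.8% of the genes lay inside 2-fold and 0.599% inside 1.5-fold. Under this stricter reading the interval of 7400 genes, among them every gene under 4 CPM, reached 2-fold, whereas it lay inside 2-fold for 86.0% of the genes from 16 to 64 CPM and for 90.8% of those from 64 to 256 CPM. In the fit without the pairing the median half-width was 0.43 (1.35-fold) and 80.8% of genes lay inside 2-fold.

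**Figure D2:**
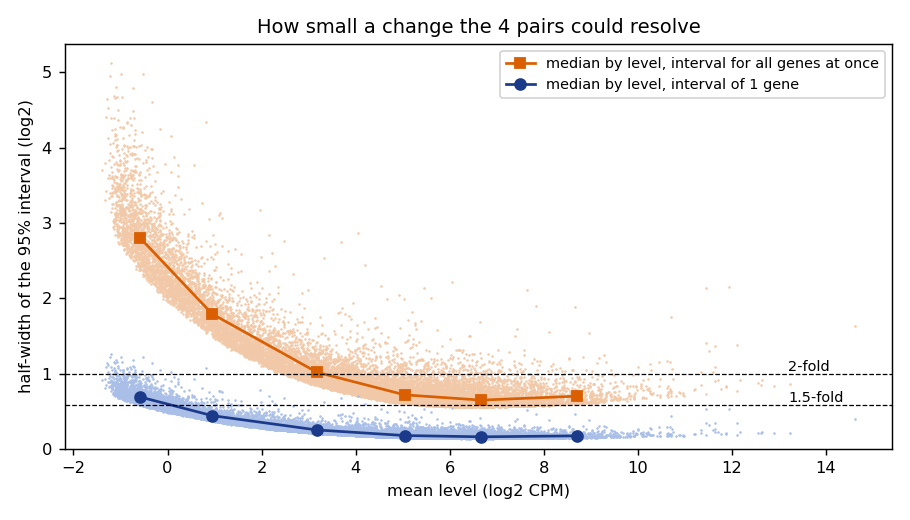
The half-width of the 95% interval of the log2 fold change (vertical axis) is plotted against the mean level in log2 CPM (horizontal axis) for 16020 genes, in blue for the interval of 1 gene and in orange for the interval adjusted over all genes; lines join the medians of 6 classes of level and dashed lines mark 1.5-fold and 2-fold. The blue medians fall from 0.69 under 1 CPM to 0.16 at 64 to 256 CPM, and the orange medians fall below the 2-fold line only from 16 CPM on.

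The total count was 19986385 to 24345245 in the mock-irradiated libraries and 25586326 to 36382364 after 0.1 Gy, so the groups did not overlap (exact permutation test, two-sided, p = 0.0286, the smallest value that 4 against 4 libraries can give). Unlike the gene tests, this test did not use the pairing. After the counts were thinned to the smallest total, 0 genes were at an adjusted p under 0.05 and 648 at an unadjusted p under 0.05. The share of mitochondrially encoded counts was 1.247% to 3.07% in mock-irradiated and 1.36% to 3.47% in 0.1 Gy libraries, and the share of *Gm42418*, a gene model that overlaps ribosomal RNA sequence, was 0.798% to 4.39% and 0.582% to 5.75%. All 12 astrocyte markers were detected, led by *Glul*, *Gfap* and *Aqp4*, with a summed level of 2867 to 3445 CPM in mock-irradiated cells and 2815 to 3342 CPM after 0.1 Gy. Markers of other cell types were counted as well, and whether astrocytes themselves express them was not tested. The 14 microglial markers summed to 382 to 3575 CPM and 400.0 to 3095 CPM, with the lowest value in replicate 2 of both doses, the 12 markers of fibroblasts and mural cells to 5912 to 7500 CPM and 5588 to 8566 CPM, the 12 of the oligodendrocyte lineage to 435 to 808 CPM and 420 to 847 CPM, and the 16 neuronal markers to 456 to 654 CPM and 446 to 664 CPM. Of the 16 neuronal markers only 9 passed the filter on low counts, led by *Stmn2*, *Map2* and *Tubb3*, while *Rbfox3*, *Snap25*, *Dcx*, *Nefl*, *Slc17a7* and *Slc17a6* did not pass and *Neurod6* was at 0 in all 8 libraries. The oligodendrocyte markers *Mog* and *Mobp*, the endothelial markers *Cldn5*, *Tie1* and *Emcn*, the fibroblast marker *Lum* and the ependymal marker *Tmem212* did not pass either. The 8 ependymal markers summed to 152 to 326 CPM and 171 to 244 CPM, and the 10 endothelial markers to 24.9 to 39.3 CPM and 23.8 to 38.8 CPM. The ranges of the 2 groups overlapped for all 7 marker lists. At an unadjusted p under 0.05, 1 astrocyte marker, *Sox9* (-0.17), and 1 ependymal marker, *Tppp3* (-0.22), were lower. At the same threshold 1 microglial marker, *Ptprc* (0.21), was higher. Beside these stand 1.68% of all genes higher and 2.29% lower. All 7 tested ependymal markers had negative log2 fold changes, with a median of -0.59 in pair 4 and positive medians in the other pairs. In bulk RNA, fewer cells of a type cannot be told apart from less RNA per cell.

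The p53 targets were the first list examined. Of 48 targets, all of which passed the filter on low counts, 0 reached an adjusted p under 0.05, 4 were higher and 1 was lower at an unadjusted p under 0.05, beside 1.68% and 2.29% of all genes. The median log2 fold change of the 48 was 0.04, against -0.0027 over all genes. By role, the 20 targets of cell cycle arrest and feedback had a median of 0.05 (3 higher at an unadjusted p under 0.05), the 15 of apoptosis 0.04 (1 higher and 1 lower) and the 13 of repair and redox balance -0.02 (0 either way). The interval of every one of the 48 lay inside a 2-fold change, and for 46 it lay inside 1.5-fold. The other two, *Ptprv* and *Ddb2*, have levels of about 2 CPM.

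Some of these genes carry p53 half-sites close to their start, and these stretches are shown because the values below turn on p53 targets. RefSeq promoter windows (GRCm38.p6, 250 bases before to 50 after a start) were found for 37 of the 48 genes. The p53 half-site, which reads the same on both strands, was matched in 8.36% of all 32851 windows and in 24.5% of the 49 windows of the list, and a pair of half-sites with a spacer of up to 13 bases in 0.0731% of all windows and in 1 gene of the list, *Cdkn1a*. A match is a description of letters and not evidence of binding. For the targets that stood at an unadjusted p under 0.05 here or differed between the doses, the stretch before the start reads as follows, with the match in capitals (for *Cdkn1a* the pair of half-sites with its spacer). The stretches lie at chr17:29090881-29090962 (+) for *Cdkn1a*, chr10:117710910-117710969 (-) for *Mdm2*, chr11:40755437-40755496 (-) for *Ccng1*, chr7:45467065-45467124 (-) for *Bax* and chr9:36797335-36797369 (-) for *Ei24*. The windows of *Dcxr*, *Eda2r*, *Pidd1* and *Sesn2* held no match to these letters, and for *Pmaip1*, *Tnfrsf10b* and *Trp53inp1* no window was searched.
Cdkn1a: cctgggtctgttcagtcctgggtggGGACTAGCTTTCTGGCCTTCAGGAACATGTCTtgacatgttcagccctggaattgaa
Mdm2: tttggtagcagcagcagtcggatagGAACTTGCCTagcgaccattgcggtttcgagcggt
Ccng1: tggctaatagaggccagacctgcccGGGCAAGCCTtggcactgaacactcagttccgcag
Bax: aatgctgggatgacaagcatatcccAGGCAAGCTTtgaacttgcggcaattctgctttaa
Ei24: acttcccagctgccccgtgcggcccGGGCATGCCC

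*Cdkn1a* (chr17:29090979-29100722, + strand), the gene with the paired match, was at 344, 552, 276 and 294 CPM in mock-irradiated replicates 1 to 4 and at 345, 584, 337 and 276 CPM after 0.1 Gy. The means were 366 ± 127 and 386 ± 136 CPM (SD, n = 4). The groups overlapped almost wholly, and replicate 2 was the highest at both doses. The pair differences were -0.0009, 0.09, 0.29 and -0.10 (log2) in pairs 1 to 4, so pair 1 showed no difference and the other pairs did not share a direction. The log2 fold change was 0.07 with a 95% interval from -0.10 to 0.24, so an induction above 1.18-fold and a decrease below 0.93-fold lie outside it (adjusted p = 0.91, edgeR). The 2 Gy libraries of replicates 1 to 4 had 604, 722, 519 and 429 CPM.

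*Mdm2*, the ubiquitin ligase that degrades p53, was at 151, 219, 138 and 115 CPM in mock-irradiated cells and at 159, 222, 156 and 141 CPM after 0.1 Gy. All 4 pairs were higher after 0.1 Gy, by little, while the groups overlapped. The log2 fold change was 0.14, with an interval from -0.01 to 0.30 (edgeR adjusted p = 0.885). *Ccng1*, which encodes cyclin G1, went from 479, 669, 465 and 404 CPM to 560, 686, 558 and 484 CPM, again with all 4 pairs higher. Its log2 fold change was 0.19 (interval 0.03 to 0.35, edgeR adjusted p = 0.885).

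The largest difference among targets of over 4 CPM was that of *Eda2r*, a receptor of the TNF family. It was at 42.4, 91.3, 26.9 and 22.7 CPM in mock-irradiated cells and at 52.7, 93.1, 33.2 and 33.8 CPM after 0.1 Gy, with each pair higher and the pair differences between 0.03 and 0.56 (log2). The log2 fold change was 0.29 (interval 0.10 to 0.48, 1.22-fold, edgeR adjusted p = 0.885). *Trp53inp1*, which links p53 to stress and autophagy, had 0.27 (interval 0.06 to 0.48), *Rrm2b*, a ribonucleotide reductase subunit that supplies nucleotides for repair, 0.18 (interval -0.03 to 0.38) and *Sesn2*, a stress-induced regulator of mTORC1, 0.15 (interval 0.01 to 0.29), each with 4 of 4 pairs higher. *Bax*, whose product opens the outer mitochondrial membrane in apoptosis, pointed the other way. It was at 126, 128, 84.7 and 138 CPM in mock-irradiated cells and at 109, 120, 83.5 and 105 CPM after 0.1 Gy, lower in each pair, with a log2 fold change of -0.18 (interval -0.35 to -0.02, edgeR adjusted p = 0.885). The GC content was 38.8% for *Trp53inp1*, 39.4% for *Rrm2b*, 40.8% for *Ccng1*, 40.9% for *Eda2r*, 58.7% for *Sesn2* and 63.5% for *Bax*. Its part in these values was not tested. With all replicates kept, the alternatives gave 0.19 to 0.31 for *Eda2r*, 0.15 to 0.29 for *Trp53inp1* and -0.19 to -0.06 for *Bax*. For *Sesn2* they gave 0.15 to 0.21.

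The other targets of high level were close to mock. Among the 12 of highest mean CPM, *Ephx1* had a log2 fold change of -0.04, *Gpx1* -0.12, *Ak1* -0.06, *Zmat3* -0.03, *Cdc42se1* -0.07, *Ei24* 0.03, *Phlda3* -0.08 and *Aen* 0.06, each with an interval that includes 0. *Pmaip1*, which encodes the BH3-only protein Noxa, had 0.16 (interval -0.04 to 0.36). *Ddias*, a suppressor of damage-induced apoptosis that is not on the list, had 0.31 (interval 0.11 to 0.52). It was picked from all genes for a small unadjusted p and 4 pairs higher, so its direction and interval follow from that choice.

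The higher dose, 2 Gy, is represented by 4 libraries with the same replicate numbers. Both comparisons with mock share the 4 mock-irradiated libraries, so the values are given side by side only. After 2 Gy the median log2 fold change was 0.37 in the arrest list (0.05 after 0.1 Gy), 0.33 in the apoptosis list (0.04) and 0.11 in the repair list (-0.02). Taken at an unadjusted p under 0.05, 25 of the 48 targets were higher and 0 lower after 2 Gy, beside 3.55% of all 15994 genes higher and 3.33% lower in that comparison, in which again no gene reached an adjusted p under 0.05 (0%, smallest adjusted p = 0.141, edgeR, with 1101 genes at an unadjusted p under 0.05). With voom this count was 0 as well, with DESeq2 it was 66, and with edgeR without replicate 4 it was 129.

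The difference between the doses was tested directly in the 12 libraries of 6 h, with the replicate number as a block. Of 16524 genes 23 differed at an adjusted p under 0.05 (0.139%), 22 of them higher after 2 Gy, and 9 of the 48 p53 targets were among the 22. These were *Cdkn1a*, *Mdm2*, *Ei24*, *Sesn2*, *Trp53inp1*, *Pmaip1*, *Tnfrsf10b*, *Pidd1* and *Dcxr*. *Cdkn1a* was 0.60 higher on the log2 scale after 2 Gy than after 0.1 Gy (interval 0.40 to 0.80, edgeR adjusted p = 0.0373), *Mdm2* 0.53 higher (0.36 to 0.70, edgeR adjusted p = 0.0325) and *Trp53inp1* 0.72 higher (0.47 to 0.97, edgeR adjusted p = 0.0438). The differences of *Ccng1* (0.55, edgeR adjusted p = 0.0696) and *Eda2r* (0.56, edgeR adjusted p = 0.0717) did not pass. The count of 23 was 0 in the unpaired fit and 0 without replicate 1 or replicate 3, and it was 5 without replicate 2 and 57 without replicate 4.

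**Figure D3:**
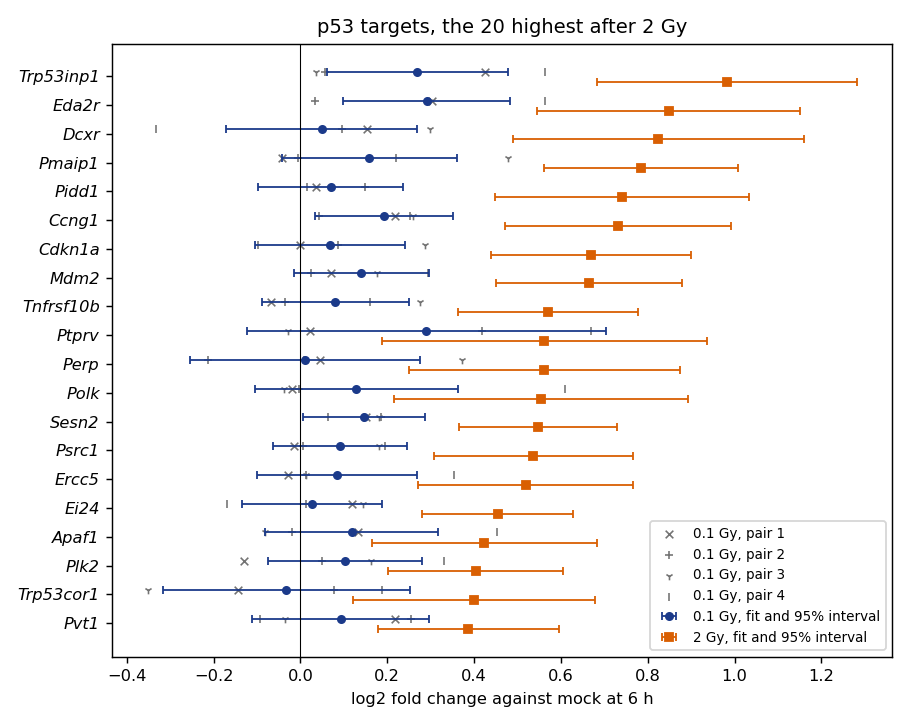
Fitted log2 fold changes against mock at 6 h (horizontal axis) are plotted for the 20 p53 targets with the highest values after 2 Gy, with blue circles for 0.1 Gy, orange squares for 2 Gy, bars for the 95% intervals and grey signs for the 4 single pairs at 0.1 Gy. At 0.1 Gy most intervals include 0, and *Cdkn1a* stands at 0.07 after 0.1 Gy and at 0.67 after 2 Gy.

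The other 14 genes of the 23 were read in the same way. The 23 were chosen for a difference between the doses in these same libraries. For a gene higher after 2 Gy, a low value after 0.1 Gy helped it to be chosen. Their values at 0.1 Gy are therefore a description. *Ano3*, which encodes a membrane protein of the anoctamin family, was at 10.1, 26.7, 11.8 and 9.97 CPM in mock-irradiated cells, at 12.8, 27.6, 15.5 and 16.6 CPM after 0.1 Gy and at 27.2, 50.1, 25.9 and 38.5 CPM after 2 Gy. It was the member of the 23 with the highest log2 fold change at 0.1 Gy, 0.36 (interval 0.12 to 0.60), with each pair higher. *Slc19a2*, a thiamine transporter, had 0.20 (0.04 to 0.35) and *Zfp365* 0.15 (-0.03 to 0.32). *Celf5* (0.12), *Klhdc7a* (0.11), *Kank3* (0.08), *Scn3b* (0.08), *Plcd4* (0.07), *Ddit4l* (0.06), *Inka2* (0.04), *1700007K13Rik* (0.03), *Ppp2r2c* (0.02) and *Tmem19* (-0.02) had intervals at 0.1 Gy that include 0. The single gene lower after 2 Gy, *Lmnb1*, which encodes lamin B1 of the nuclear envelope, had -0.04 after 0.1 Gy (interval -0.18 to 0.11).

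DNA repair genes were close to mock after 0.1 Gy. The 39 genes of double strand break repair had a median log2 fold change of 0.0034, 0 were at an unadjusted p under 0.05 in either direction, and all 39 intervals lay inside a 2-fold change. The 25 genes of base excision and single strand break repair had a median of -0.04, with 2 lower (2.29% of all genes were lower). *Xrcc1*, the scaffold of single strand break repair, was at 18.8, 25.4, 21.6 and 25.1 CPM in mock-irradiated cells and at 16.8, 19.98, 18.8 and 22.95 CPM after 0.1 Gy, lower in each pair (-0.21, interval -0.38 to -0.04, edgeR adjusted p = 0.885). *Lig1*, the DNA ligase that joins replication and repair ends, had -0.17 (interval -0.34 to -0.0032).

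For cell cycle genes the median after 0.1 Gy was -0.03 over 43 genes of the S phase (0 higher and 1 lower at an unadjusted p under 0.05) and 0.04 over 54 genes of the G2 and M phases (2 higher and 1 lower). After 2 Gy both lists were at -0.19 and -0.20, with 17 and 20 members lower and 0 and 3 higher at an unadjusted p under 0.05, beside 3.33% of all genes lower and 3.55% higher. The members at an unadjusted p under 0.05 after 0.1 Gy were *Gins2* (-0.28), of the replicative helicase, *Bub1* (0.23) and *Ckap2* (0.17) of the mitotic spindle, and *Cdc20* (-0.19), an activator of the anaphase promoting complex. A list of 66 genes that are lower 24 h after 2 Gy, chosen on other libraries of the same series, had a median of 0.06 after 0.1 Gy at 6 h, with 1 higher and 1 lower, the kinetochore gene *Ska1* (-0.39), beside 1.68% and 2.29% of all genes. Of the 66, 49 had a positive log2 fold change, the medians in pairs 1 to 4 were -0.05, -0.11, 0.11 and 0.32, and without replicate 4 the fitted median was -0.0091.

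For inflammatory and early response genes the counts at an unadjusted p under 0.05 stand beside 1.68% of all genes higher and 2.29% lower. The 21 NF-kB targets had a median of -0.01 with 1 higher, *Nfkbiz* (0.20, interval 0.05 to 0.36, 4 of 4 pairs). The 29 cytokines and chemokines had 25 tested members, a median of -0.02 and 0 at an unadjusted p under 0.05. The 30 interferon-stimulated genes had a median of 0.04 with 1 higher, the viral RNA sensor *Ifih1* (0.19, interval 0.01 to 0.37), but the pairs disagreed, with list medians of 0.30, 0.17, -0.03 and -0.28 in pairs 1 to 4. Of 32 immediate early genes 31 were tested, with a median of 0.02. The orphan receptor *Nr4a3* was higher in all 4 pairs, from 78.7, 41.6, 61.1 and 21.9 CPM to 105, 43.5, 64.8 and 30.7 CPM (0.26, interval 0.07 to 0.45), and the AP-1 subunit *Jund* lower in all 4, from 156, 111, 84.2 and 155 CPM to 118, 97.7, 82.4 and 120 CPM (-0.25, interval -0.42 to -0.08). The edgeR adjusted p = 0.885 applies to both.

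Stress programmes outside DNA damage are counted in the same way, beside 1.68% of all genes higher and 2.29% lower. The 25 Nrf2 targets and antioxidant enzymes had a median of -0.06 with 1 lower, the 26 genes of the unfolded protein and integrated stress response -0.01 with 0, the 15 heat shock genes -0.00051 with 1 lower and the 21 circadian clock genes 0.0015 with 0. The Nrf2 list had medians of -0.09, 0.05, 0.10 and -0.35 in pairs 1 to 4, and its fitted median was between -0.13 and -0.0067 when 1 replicate was left out. *Mt2*, a metallothionein that binds zinc and is induced by metals and glucocorticoids, was at 168, 144, 92.9 and 237 CPM in mock-irradiated cells and at 148, 126, 72.4 and 140 CPM after 0.1 Gy. It was lower in each pair, most in pair 4, and its log2 fold change was -0.38 (interval -0.59 to -0.17, edgeR adjusted p = 0.885). *Hspa1a*, the inducible HSP70, was at 3.89, 3.79, 2.63 and 4.69 CPM and then at 2.62, 3.37, 1.85 and 3.90 CPM (-0.37, interval -0.68 to -0.06).

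The astrocyte state was described by markers of reactivity and senescence. Of 39 reactivity genes 37 were tested, with a median of -0.00077 and 1 higher (1.68% of all genes were higher), the copper oxidase *Cp* (0.18, interval 0.02 to 0.34). *Gfap*, the intermediate filament of astrocytes, was at 618, 646, 384 and 456 CPM in mock-irradiated cells and at 604, 730, 377 and 385 CPM after 0.1 Gy, with 1 of 4 pairs higher. Its log2 fold change was -0.03, and the interval from -0.22 to 0.15 excludes an increase above 1.11-fold. Of 19 senescence genes 18 were tested, with a median of 0.0054 and 1 lower (2.29% of all genes were lower). That gene was *Cdkn2a*, which encodes the cell cycle inhibitor p16 and ARF. It was at 24.4, 10.2, 11.3 and 17.3 CPM in mock-irradiated cells and at 18.1, 7.87, 9.80 and 12.6 CPM after 0.1 Gy, lower in each pair, with a log2 fold change of -0.38 (interval -0.57 to -0.18, 0.77-fold, edgeR adjusted p = 0.885).

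The list of genes for RT-qPCR, which also holds *Cdkn1a*, *Gfap* and *Cdkn2a*, had the further members *Il1b* (-0.12, interval -0.45 to 0.20), *Il6* (0.17, -0.11 to 0.46), *Tnf* (-0.15, -0.47 to 0.18), *Tgfb1* (-0.04, -0.20 to 0.11) and the reference gene *Hprt* (0.01, -0.17 to 0.20), none with an interval off 0. *Il6* is an example of a wide spread between cultures, with 19.7, 6.04, 25.9 and 4.74 CPM in mock-irradiated cells and 21.7, 4.54, 36.8 and 5.77 CPM after 0.1 Gy. *Svop* was at 10.8, 28.3, 4.68 and 7.74 CPM and at 10.2, 31.7, 4.51 and 9.80 CPM (0.10, interval -0.12 to 0.32), and *Abhd11os* had -0.21 (interval -0.69 to 0.27). Both overlap a gene on the other strand, and whether the counting was stranded is not given in the sources used here.

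**Figure D4:**
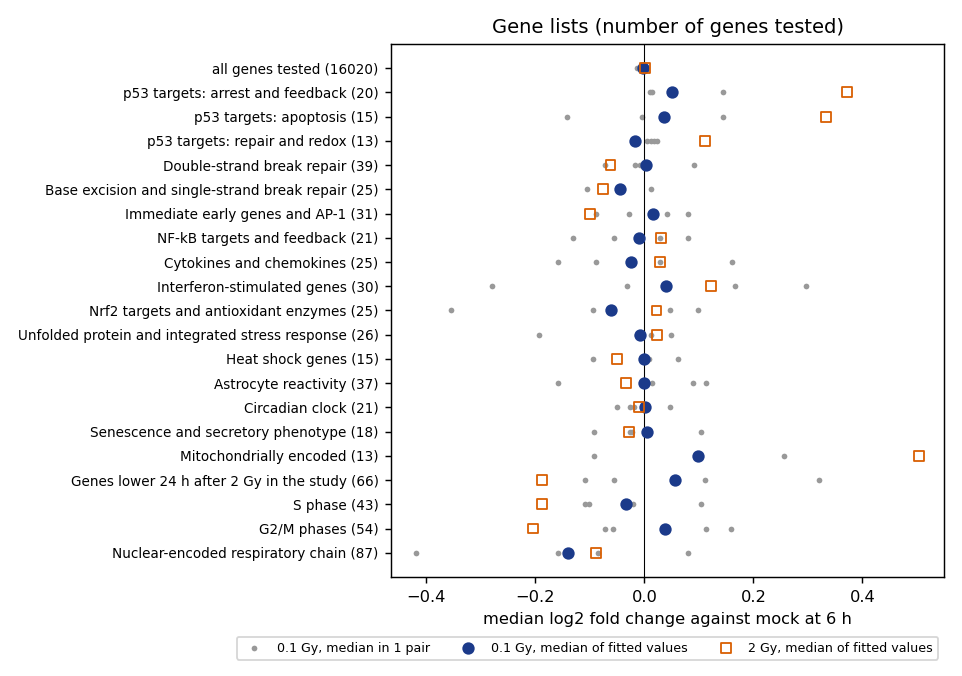
The median log2 fold change against mock at 6 h (horizontal axis) is plotted for all tested genes and for the gene lists other than cell type markers and RT-qPCR genes, with the number of tested genes in brackets, as blue circles for 0.1 Gy, orange squares for 2 Gy and grey points for the 4 single pairs at 0.1 Gy. The medians at 0.1 Gy lie between -0.14 and 0.10, while at 2 Gy the arrest and apoptosis targets stand at 0.37 and 0.33.

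The genes with the smallest unadjusted p that moved the same way in all 4 pairs are described next, and all had an edgeR adjusted p = 0.885. Among the lower ones, *Zbtb20*, a transcription factor of astrocyte development, was at 257, 216, 275 and 233 CPM in mock-irradiated cells and at 218, 193, 168 and 162 CPM after 0.1 Gy. Only 1 library after 0.1 Gy was above the lowest mock-irradiated one. Its log2 fold change was -0.41 (interval -0.62 to -0.20, 0.751-fold). *Nnmt*, nicotinamide N-methyltransferase, had the largest decrease, -0.92 (interval -1.42 to -0.41), at a level of 0.543 to 1.79 CPM in mock-irradiated and 0.231 to 1.10 CPM in 0.1 Gy libraries. *Fam213b* (-0.49), *Pcsk1n* (-0.33), *Grcc10* (-0.33) and *Ccdc85b* (-0.28) followed.

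Among the leading lower genes 3 encode subunits of the respiratory chain. *Ndufa13*, of complex I, was at 65.2, 55.2, 50.04 and 86.8 CPM in mock-irradiated cells and at 53.7, 46.1, 42.5 and 60.8 CPM after 0.1 Gy (-0.33, interval -0.49 to -0.17). *Ndufa3* had -0.34 and *Uqcr11*, of complex III, -0.31. The nuclear-encoded subunits and assembly factors of the respiratory chain and the ATP synthase were therefore listed by gene name, a list chosen after these values were seen, so that its counts are a description. Of 92 genes 87 were tested, 80 of which had a negative log2 fold change, with a median of -0.14 against -0.0027 over all genes, and 22 were lower and 0 higher at an unadjusted p under 0.05 (2.29% of all genes were lower). The median was -0.16, -0.08, 0.08 and -0.42 in pairs 1 to 4, so pair 3 pointed the other way and pair 4 weighed most. Without replicate 4 the median was -0.04, with 60 of 87 negative and 13 lower at an unadjusted p under 0.05. Without replicate 3 the median was -0.22, with 84 negative and 42 lower. The number lower was 8 without replicate 1, 10 without replicate 2 and 0 without the block. Corrected for the GC content and the length of genes, it was -0.10, with 76 negative and 18 lower.

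The 13 mitochondrially encoded mRNAs had a median of 0.10, with 2 higher (1.68% of all genes were higher), *mt-Nd2* (0.20, interval 0.03 to 0.37) and *mt-Atp6* (0.47, 0.06 to 0.89), and the tRNA gene *mt-Tl1* was among the leading higher genes (0.35, 0.15 to 0.54, 4 of 4 pairs). The list medians were 0.09, 0.10, 0.26 and -0.09 in pairs 1 to 4, so pair 4 pointed the other way. *mt-Atp6* was at a low level, with 0.591, 1.47, 3.97 and 1.84 CPM in mock-irradiated cells. It had 0.833, 2.80, 5.40 and 1.89 CPM after 0.1 Gy. The same 13 genes had a median of 0.50 after 2 Gy. The share of mitochondrial counts in the libraries was higher after 0.1 Gy in all 4 pairs, from 1.247% to 1.36%, 2.42% to 2.56%, 3.07% to 3.47% and 1.96% to 2.14%, and its part in these values was not tested.

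Of the other leading higher genes, *Gm5602* had the largest value, 1.37 (interval 0.64 to 2.11), on 0.194 to 0.367 CPM in mock-irradiated and 0.439 to 1.29 CPM in 0.1 Gy libraries. These groups did not overlap, at a level where the median half-width is 0.69, and as an antisense gene model its reads cannot be told apart from those of an overlapping gene if the counting did not use strand. A gene can pass the filter on low counts through 1 group alone, so this gap is a description and no support. *Gm5602* did not enter the fit with at least 10 counts in every library. *Srsf12* had 0.41, *Slc4a10*, a bicarbonate transporter, 0.83 and *Zfp644* 0.23. *Slc4a10* and *Nnmt* did not enter that fit either. A further 2 are genes of microglia and macrophages. *Cd33*, a sialic acid receptor, was at 22.8, 3.10, 26.7 and 22.7 CPM in mock-irradiated cells and at 29.6, 3.25, 33.98 and 27.9 CPM after 0.1 Gy (0.30, interval 0.12 to 0.48), and the mannose receptor *Mrc1* at 21.7, 0.449, 12.7 and 14.999 CPM and at 26.1, 0.530, 15.3 and 20.2 CPM (0.31, 0.11 to 0.52). The phosphatase *Ptprc* (CD45) had 0.21 (0.04 to 0.39). The whole list of 14 microglial markers had a median of -0.04, with 5 positive and 9 negative log2 fold changes and 1 higher at an unadjusted p under 0.05, and its summed levels overlapped as given above. That negative median came from pair 4. The list medians in pairs 1 to 4 were 0.06, 0.03, -0.00049 and -0.38, and the fitted median was 0.07 without replicate 4 and 0.03 once corrected for GC and length.

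The pair differences varied with the GC content and the length of genes. By GC content all 4 pairs ran the same way. The median difference was 0.13, 0.01, 0.07 and 0.18 (log2) in pairs 1 to 4 for the 1031 genes under 40% GC, and -0.08, -0.0042, -0.05 and -0.15 for the 3544 genes over 55% GC, and the fitted medians were 0.11 and -0.07. Directions shared by all 4 pairs, as given above for single genes, therefore stand beside a GC trend that the pairs share. By length the pairs differed among themselves. The SD of the pair difference across genes was 0.28, 0.26, 0.29 and 0.41 (log2) in pairs 1 to 4, and the correlations between pairs, taken across 16020 genes that are not independent replicates, were from -0.17 to 0.12. In pair 4 the median difference was -0.29 for the 1006 genes with under 1 kb of exon sequence and 0.37 for the 415 genes with over 14 kb. In pair 3 it went from 0.03 to -0.16, in pair 2 from -0.07 to -0.05 and in pair 1 from -0.04 to 0.05. Pair 4 also had the largest gap in depth, with 19986385 counts in the mock-irradiated and 35277660 in the 0.1 Gy library, 1.77 times as many, next to 1.74 in pair 1. With the correction for GC content and length, 0 genes were at an adjusted p under 0.05 and 484 at an unadjusted p under 0.05 (edgeR).

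**Figure D5:**
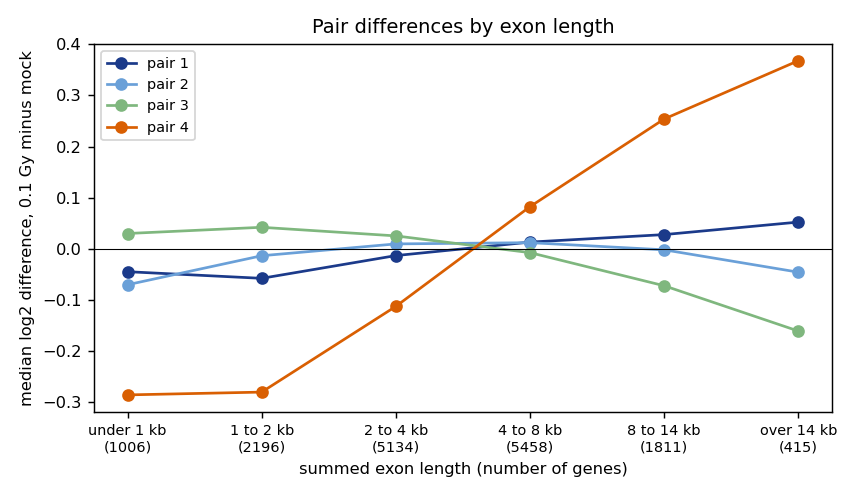
The median log2 difference of 0.1 Gy minus mock (vertical axis) is plotted for each of the 4 pairs by summed exon length of the gene (horizontal axis, number of genes in brackets). Pair 4 climbs from -0.29 under 1 kb to 0.37 over 14 kb, pair 3 descends from 0.03 to -0.16 and the other pairs stay near 0.

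Without replicate 4, 13 of 16126 genes were lower after 0.1 Gy at an adjusted p under 0.05 (0.0806%) and 0 higher, and none reached a log2 fold change of 1. All 13 are genes of very long transcripts, with 14307 to 41155 bases of exon sequence. They were the cytoskeletal linkers *Dst*, *Macf1*, *Plec* and *Syne2*, the membrane proteins *Lrp1*, *Lrp2* and *Fat1*, the basement membrane proteoglycan *Hspg2*, the chromatin and transcription regulators *Kmt2d* and *Zfhx3*, and *Ahnak*, *Ubr4* and the dynein heavy chain *Dync1h1*. *Lrp1*, a receptor for lipoproteins, had differences of -0.47, -0.22, -0.61 and 0.30 in pairs 1 to 4, *Macf1* of -0.30, -0.30, -0.65 and 0.32 and *Syne2* of -0.57, -0.39, -0.70 and 0.17. With all 4 pairs the log2 fold change of the 13 was between -0.38 (*Syne2*) and -0.07 (*Lrp2*), with an adjusted p between 0.885 and 0.951 (edgeR).

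With no filter on low counts, 7 of 30183 genes were at an adjusted p under 0.05 (0.0232%), and none reached a log2 fold change of 1. These were *Gm42418* (-0.32), *Zbtb20* (-0.39), *Mt2* (-0.36), *mt-Nd5* (0.34), *Arhgap5* (0.40), *Klhl28* (0.47) and *Lrrc9* (0.51). Only *Zbtb20* and *Mt2* were lower in each pair, and *Lrrc9* and *mt-Nd5* were higher in each. *mt-Nd5*, *Arhgap5*, *Klhl28* and *Lrrc9* had their largest difference in pair 4, with 1.05, 1.30, 1.44 and 1.09 on the log2 scale.

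The same dose at 24 h, in other libraries and against other mock-irradiated libraries, placed 1107 of 16183 genes at an adjusted p under 0.05 (6.84%, 379 higher and 728 lower, edgeR with the block), a count that was 16 without replicate 4, 21 without replicate 2 and 3728 without replicate 3, and 0 without the replicate block. The interaction of 0.1 Gy and time, the test of the difference between the 2 time points, placed 1511 of 17040 genes at an adjusted p under 0.05 (8.87%), a count that was 2 without replicate 1, 2 or 4 and 3457 without replicate 3, and again 0 without the block. Of the 48 p53 targets 4 were higher and 3 lower at 24 h at an adjusted p under 0.05. *Eda2r* had a log2 fold change of 0.29 at 6 h and -0.37 at 24 h, *Trp53inp1* 0.27 and -0.47 and *Bax* -0.18 and 0.61, each with an interaction adjusted p = 0.0214 (edgeR). The respiratory chain genes, at -0.14 at 6 h, had a median of 0.24 at 24 h, with 21 higher at an adjusted p under 0.05 and 0 lower.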

How the data were processed

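Replicate numbers were taken from the labels. In the fits with the block, a p-value sets a dose difference against its spread between replicate numbers. The permutation test of total counts used no block. The study calls the replicates independent biological ones, from pools of 1 litter each. The values are counts of reads per gene that the authors deposited as 1 table per library, with 49315 genes, on the mm10 (GRCm38) build. RNA was selected by poly(A) and sequenced as paired reads in one run by the provider that also trimmed, mapped and counted the reads. The aligner, the counting program with its version, and whether it was stranded are not given in the sources used here.

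Counts were tested with edgeR 4.0.16 (TMM scaling, filterByExpr, quasi-likelihood F-test, Benjamini-Hochberg adjustment) in R 4.3.3, with dose and replicate number as terms. Calls needed an adjusted p under 0.05 together with a log2 fold change of at least 1 in size. The 95% intervals were taken from the same fit, singly and with a Bonferroni adjustment over all genes. CPM values are counts scaled to a common total of TMM-scaled libraries. Whether the numbers pair the libraries was checked on the deviations from the group means, where same-numbered libraries correlated at 0.65 to 0.927 and others at -0.62 to 0.30. Replicates of a group differed by more than sampling noise (chi-square per degree of freedom of at least 48.2). The difference between doses used the 12 libraries of 6 h, and the interaction with time the 16 libraries of 0 and 0.1 Gy. Alternatives were DESeq2 1.42.0 and limma 3.58.1 (voom), other scalings and filters, thinned counts, a GC and length correction, and fits without each replicate. DESeq2 was run without the filter on low counts. The edgeR, voom, DESeq2 and GC and length fits of 0.1 Gy against mock at 6 h were tested on simulated counts. The other steps were not. Named genes are list members at an unadjusted p under 0.05 or of high level, the genes with the smallest unadjusted p and 4 pairs in 1 direction, and genes that differed between doses. The 13 genes that passed only without replicate 4 were named after their values were seen. The members and lists were chosen with earlier results of these data known. Promoter windows are from RefSeq.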

Additional observations from a re-analysis of the deposited data

Results flagged for a closer look

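Single libraries stood apart from the other 3 of their group for several of the 78 genes named, by Dixon's ratio of the gap to the range at its 95% limit (164 groups tested, of which chance flags about 1 in 20). Replicate 2 was the library in most of them. It was low for *Cp* (84.5 CPM against 427 to 443 in the other mock-irradiated libraries, ratio 0.955), *Tgfb1* (36.4 against 73.3 to 78.2 CPM, 0.883) and *Cd33* (3.10 against 22.7 to 26.7 CPM, 0.832) in mock-irradiated cells, and it also had the lowest summed microglial markers. It was high for *Pmaip1* (102 against 26.4 to 39.1 CPM, 0.833) and *Ano3* (26.7 against 9.97 to 11.8 CPM, 0.889) in mock-irradiated cells, and for *1700007K13Rik* (ratio 0.859) and *Tmem19* (0.879) after 0.1 Gy. In both groups it was high for *Slc4a10* (ratios 0.893 in mock and 0.861 after 0.1 Gy), *Celf5* (0.894 and 0.847), *Ppp2r2c* (0.949 and 0.944), *Zfp365* (0.836 and 0.947) and *Scn3b* (0.938 and 0.945). Replicate 4 was high for *Sox9* in both groups (184 against 117 to 125 CPM, 0.88, and 159 against 106 to 112 CPM, 0.894). After 0.1 Gy, replicate 3 was high for *Gins2* (16.6 against 11.1 to 11.7 CPM, 0.882) and low for *Uqcr11* (29.5 against 42.9 to 43.8 CPM, 0.933) and *Pcsk1n* (29.2 against 57.7 to 59.3 CPM, 0.946).

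The effect of 0.1 Gy differed between 24 h and 6 h for 1511 genes at an adjusted p under 0.05 by the interaction term (edgeR). This count was 0 without the replicate block, 2 without replicate 1, 2 or 4 and 3457 without replicate 3, and the differences that follow rest on the fit with all 4 pairs and the block. Among the genes named, the log2 fold change at 24 h minus that at 6 h was negative for the p53 targets *Ccng1* (-0.4985), *Mdm2* (-0.3736), *Eda2r* (-0.6525) and *Trp53inp1* (-0.7331) and positive for *Phlda3* (0.503) and *Bax* (0.8007). Of the leading lower genes at 6 h it was positive for *Ndufa13* (0.896), *Grcc10* (1.036), *Fam213b* (1.257), *Uqcr11* (0.9658), *Pcsk1n* (1.311), *Ndufa3* (0.8284), *Ccdc85b* (1.162), *Mt2* (1.484) and *Cdkn2a* (0.8362). Of the leading higher genes it was negative for *mt-Tl1* (-0.9556), *Cd33* (-0.5263), *Srsf12* (-0.6077), *Slc4a10* (-1.211), *Ddias* (-0.8374), *Zfp644* (-0.6588) and *Ano3* (-0.7332). The other members of lists were *Xrcc1* (0.4995), *Jund* (1.039), *Hspa1a* (0.9004), *Sox9* (0.3726), *Tppp3* (0.6843), *Bub1* (-0.6596), *Cdc20* (0.4375), *Ckap2* (-0.4651) and *Abhd11os* (1.156). Genes chosen for their value at 6 h enter the difference with that value.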

How the results depend on the processing

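No gene was called 6 h after 0.1 Gy under any of the 15 alternatives, and the count at an adjusted p under 0.05 was 7 with no filter, 0 to 13 when 1 replicate was left out and 0 under the others. The count at an unadjusted p under 0.05 was 636. It was 24 without the replicate block, 308 with 12 libraries in the fit and 278 to 1043 with 1 replicate left out. With DESeq2 it was 338 and with no filter 1365, both over 30183 genes. The median half-width was 0.43 without the block, 0.61 with no filter and 0.17 to 0.27 with 1 replicate left out. The share of genes inside 2-fold was 80.8% without the block, 52.3% with no filter, 99.4% with at least 10 counts in every library, 94.1% with 12 libraries and 90.8% to 93.9% with 1 replicate left out.

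For 2 Gy at 6 h, 4 genes were called with DESeq2 (66 at an adjusted p under 0.05), and 0 to 4 (0 to 129) with 1 replicate left out. For 0.1 Gy at 24 h 34 genes were called in the main fit. The called genes were 0 without the block, 8 with DESeq2 and 12 to 96 with 1 replicate left out, and those at an adjusted p under 0.05 were 0, 1766 and 16 to 3728. Between the doses 3 genes were called in the main fit. The called genes were 0 without the block, 5 with DESeq2, 1 with voom and 0 to 7 with 1 replicate left out, and those at an adjusted p under 0.05 were 0 without the block, 67 with DESeq2 and 0 to 57. For the interaction 86 genes were called in the main fit. The called genes were 0 without the block, 36 with DESeq2 and 2 to 302, and those at an adjusted p under 0.05 were 0 without the block and 2 to 3457. The cause of these moves was not tested.

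Of 78 named genes, these turned sign in at least 1 alternative. *Ppp2r2c* was at -0.075 without the block, -0.0048 with 12 libraries, -0.024 with voom and -0.083 with thinned counts, where *Hprt* was at -0.0094. With the GC and length correction *Hprt* was at -0.024, *Gfap* 0.0047, *Lmnb1* 0.0067, *Ephx1* 0.020 and *Phlda3* 0.044. With 1 replicate left out the ranges were -0.0083 to 0.091 for *Ei24*, -0.051 to 0.21 for *1700007K13Rik*, -0.10 to 0.037 for *Zmat3*, -0.068 to 8.7e-05 for *Lmnb1*, -0.13 to 0.18 for *Ppp2r2c*, -0.023 to 0.17 for *Dcxr*, -0.080 to 0.081 for *Hprt*, -0.36 to 0.0022 for *Abhd11os*, -0.088 to 0.0058 for *Tgfb1*, -0.079 to 0.0074 for *Ephx1*, -0.33 to 0.013 for *Tnf*, -0.046 to 0.029 for *Tmem19* and -0.10 to 0.039 for *Gfap*. *Zbtb20* and *Mt2* passed an adjusted p under 0.05 with no filter. The intervals were widest for genes of low level, and counts thinned to the smallest total left the median half-width at 0.21 and the share inside 2-fold at 96.2%.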
